A study of Mus musculus with 5 samples.

Results

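The genes described here encode the constitutive proteasome, with its regulatory particle, its assembly chaperones and 1 alternative activator, measured in RNA from mouse peritoneal macrophages. The naming rule that defines them uses no measured value. It took probe sets whose single platform symbol started with Psma, Psmb, Psmc, Psmd, Psmf or Psmg, or was Psme3, and left out Psmb8, Psmb9 and Psmb10. This gave 40 genes on 51 probe sets, out of 8251 genes with 1 symbol on the array, and each gene was represented by its probe set with the highest mean over the 5 arrays. No probe set for Psmf1 was among them. Of the 40, 37 had a mean signal above the filter of 513 and were tested among 5581 genes. The other 3 were Psmc4, Psmd2 and Psmc3ip. Psmc3ip met the naming rule but encodes a meiotic recombination factor and not a proteasome subunit.

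The study asked what an acute oral dose of ethanol does to the genes that poly IC induces, with 1 Affymetrix MG-U74Av2 array for each of 5 samples. Poly IC is an RNA duplex made in the laboratory that stands in for the RNA of a virus. There were 2 samples from mice given poly IC plus ethanol (6 g ethanol per kg, 0.1 mg poly IC per mouse), 2 from mice given poly IC alone and 1 from untreated (naive) mice. The 4 treated samples were pools of female C57Bl/6 x C3H F1 mice aged 12 weeks. The poly IC dose was stated for the second poly IC pool (0.1 mg per mouse) and not for the first, and neither sex, age, strain nor pooling was stated for the naive sample. No sample came from mice given ethanol without poly IC, and the sources used here state neither the harvest time nor how many mice made up a pool. The p-values measure the spread between pools, and the single naive array was assumed to vary like the treated ones.

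The proteasome degrades proteins tagged with ubiquitin. Its barrel-shaped core is built of outer rings of alpha subunits, which form the gate, and inner rings of beta subunits, some of which carry the proteolytic sites. The regulatory particle caps the core: a base of ATPases unfolds the substrate and feeds it in, and non-ATPase subunits bind ubiquitin and remove it. In cells exposed to interferon, newly made cores take up Psmb8, Psmb9 and Psmb10 in place of Psmb5, Psmb6 and Psmb7, which gives the immunoproteasome known for making peptides for MHC class I.

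The macrophage label was checked with 10 markers, all of them tested, whose summed signal was 354699 and 329016 with ethanol, 348107 and 387168 with poly IC alone and 270571 in naive cells. Without Cd14, which had 120787 and 122303 with ethanol, 126412 and 147435 with poly IC alone and 47179.9 in naive cells, the other 9 summed to 233912 and 206713 with ethanol, 221696 and 239733 with poly IC alone and 223391 in naive cells. Gata6, a factor of resident peritoneal macrophages, fell with poly IC plus ethanol (-1.72, limma adjusted p = 0.000819) and with poly IC (-2.23, adjusted p = 9.38e-05), each against naive. In the same comparisons and order, Cd14 stood at 1.36 and 1.53, Msr1 at 0.67 and 1.01 and Mrc1 at -0.88 and -0.25. The median of all 10 macrophage markers was -0.04 and -0.02. Markers of some other cell types differed between the groups. The summed signal of 7 of 8 listed B cell markers was 105338 and 109804 with ethanol, 74615 and 61277 with poly IC alone and 215301 in naive cells. For 9 neutrophil markers it was 30002 and 27022 with ethanol, 113995 and 83094 with poly IC alone and 9277 in naive cells. Erythroid markers (3 of 5 listed) summed to 19534 and 10491 with ethanol, 18325 and 34046 with poly IC alone and 1144 in naive cells, so that the treated groups overlapped. Sums for T and NK cells (6 of 8 listed) lay between 3235 and 4402 and those for mast cells (5 markers) between 10075 and 32970, with the naive array inside both ranges. None of these markers was listed at 0. The part of these cells in the results was not tested, and fewer cells of a type cannot be told apart from less RNA per cell. The signal for the 3' end of 18S ribosomal RNA was 66548 on poly IC replicate 2 and between 5113 and 19415 on the other 4 arrays.

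In poly IC plus ethanol against poly IC, small decreases prevailed among the members. Differences are given in log2(signal + 250), a scale that understates the change of dim genes, and a gene was called by limma at a Benjamini-Hochberg adjusted p under 0.05. None of the 37 tested members rose and 2 fell, Psma5 and Psmd7. Over all genes 10.6% were called, 5.77% higher and 4.8% lower. The median difference of the members was -0.20 and that of all genes 0.07. Of the members, 30 lay below 0 (81.1%), as did 41.4% of all genes. Both ethanol arrays lay below both poly IC arrays for 18 members (48.6%), which was so for 21.7% of all genes and for 25.2% of the 3898 tested genes at least as bright as the dimmest tested member. The opposite order held for 3 members (8.1%) and for 33.1% of all genes.

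These decreases were small. No member differed 2-fold, and for 34 of 37 members the 95% interval stayed within 1 log2 unit of 0. The exceptions were Psmd7, Psmd10 and Psmd12. The interval stayed within this range for 73.2% of all genes. It did so for 82.7% of the 3898 genes at least as bright as the dimmest tested member. Those 3898 genes share only a lower limit of signal with the members and are not matched to them in brightness. An unadjusted limma p under 0.05 was found for 9 of the 37 members and for 1441 of the 5581 genes, a similar share. Both calls were lost without poly IC replicate 1 and without poly IC replicate 2. Without ethanol replicate 1 the median difference of the members was -0.27.

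In poly IC against naive, 3 members rose (Psma3, Psma5 and Psma6) and 1 fell (Psmd5), together 10.8% of the 37. Over all genes 31.8% were called, 11.7% higher and 20.1% lower. Among the 3898 genes at least as bright as the dimmest tested member it was 39.9%. The median difference was 0.12 for the members and -0.16 for all genes. A total of 15 members lay below 0 (40.5%), as did 59.2% of all genes. Both poly IC arrays lay above the naive array for 20 members (54.1%; all genes 35%) and below it for 12 (32.4%; all genes 52.1%). The 95% interval stayed within 1 log2 unit of 0 for 30 members, and for 41.2% of all genes and 50.4% of those 3898. With each array centred on its median, 10 members were called higher and 1 lower, and the members' median was 0.31. Over all 5581 genes 1584 were called in that setting, higher or lower. Without poly IC replicate 2 the members' median was 0.07. Without ethanol replicate 1, and likewise without ethanol replicate 2, it stayed at 0.12 while the calls changed. These ethanol arrays enter this comparison only through the estimate of the spread.

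In poly IC plus ethanol against naive, Psmd5 fell and no other member was called. Over all genes 16.6% were called, 8.39% higher and 8.26% lower. Among the 3898 genes at least as bright as the dimmest tested member it was 21.9%. The median difference was -0.07 for the members and -0.11 for all genes. Of the members, 23 lay below 0 (62.2%), as did 58.1% of all genes. Both ethanol arrays lay above the naive array for 10 members (27.0%; all genes 32.7%) and below it for 13 (35.1%; all genes 48.1%). The 95% interval stayed within 1 log2 unit of 0 for 33 members, and for 50.9% of all genes and 62.7% of those 3898. Without ethanol replicate 1 the members' median was -0.16. The 3 comparisons share arrays, so their differences are not independent of each other. Within a group, the median absolute difference between pools was 0.21 over members and 0.22 over all genes with ethanol, and 0.15 and 0.17 with poly IC alone.

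**Figure D1:**
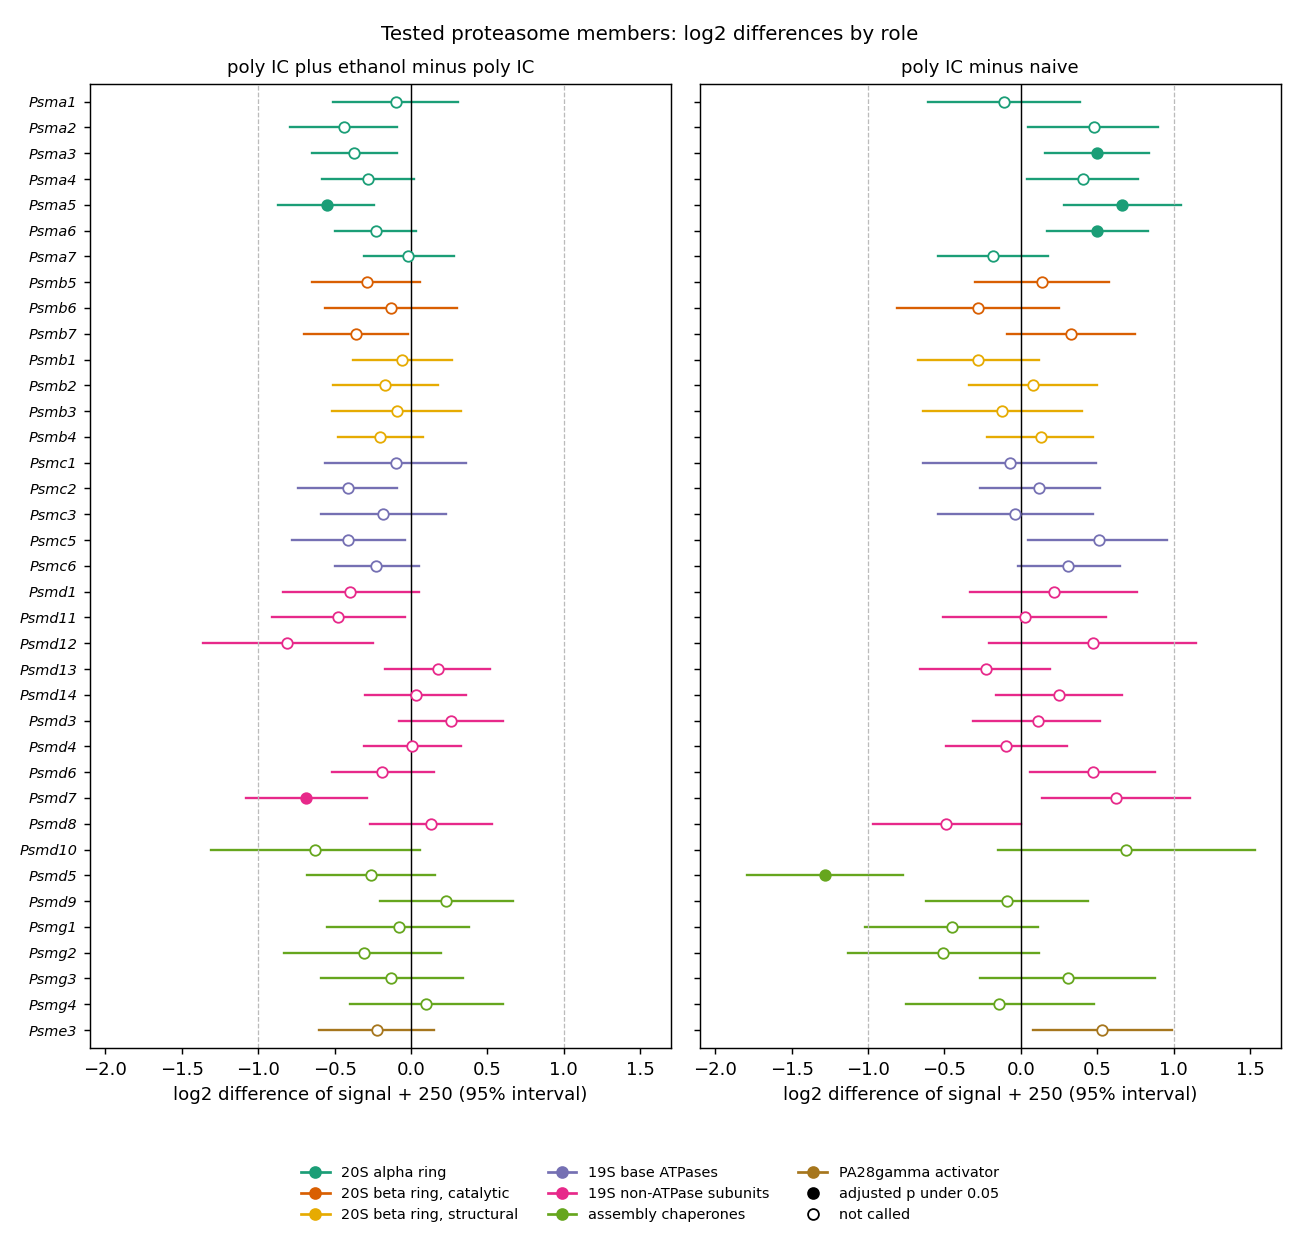
Log2 difference in signal + 250 of the 37 tested members, grouped by role, for poly IC plus ethanol minus poly IC (left) and poly IC minus naive (right). Points are limma estimates, bars 95% intervals, filled points have an adjusted p under 0.05 and dashed lines mark 1 log2 unit. On the left 30 points lie below 0 and 2 are filled, and on the right 4 are filled, with Psmd5 at -1.28.

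The alpha subunits of the core held 4 of the 6 calls in the first 2 comparisons. Of the 7 tested, 1 fell with ethanol against poly IC (14.3%, all genes 4.8%), and the median was -0.28. With poly IC against naive 3 rose (42.9%, all genes 11.7%), and the median was 0.48. Psma5 was called in both comparisons. Psma5 had signals of 7845 and 7373 with ethanol, 10782 and 11794 with poly IC alone and 7039.8 in naive cells. Both poly IC arrays stood above the other 3. Psma5 was lower with ethanol than with poly IC alone (-0.55, SE 0.14, limma adjusted p = 0.0342) and higher with poly IC than in naive cells (0.66, SE 0.17, adjusted p = 0.0153). Both calls were lost without poly IC replicate 1, without poly IC replicate 2 and with eBayes without its intensity trend, where the adjusted p reached 0.285 and 0.11.

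Psma3 was measured by a probe set whose suffix (_f_at) marks probes that can bind related transcripts, and had 27163 and 23542 with ethanol, 30566 and 35262 with poly IC alone and 23163 in naive cells. It rose with poly IC against naive (0.50, SE 0.15, limma adjusted p = 0.0323), and its difference between ethanol and poly IC was -0.37 (adjusted p = 0.0917). Psma6 had 19931 and 22281 with ethanol, 25632 and 24056 with poly IC alone and 17448 in naive cells. All 4 treated pools lay above the naive array, and both ethanol pools lay below both poly IC pools. Psma6 rose with poly IC against naive (0.50, SE 0.15, adjusted p = 0.0257), and its ethanol difference was -0.23 (adjusted p = 0.254). The rise of Psma3 was lost with quantile normalization, with no filter, with eBayes without the trend and without poly IC replicate 2 (highest adjusted p = 0.311). That of Psma6 was lost with quantile normalization, with eBayes without the trend, without poly IC replicate 1 and without poly IC replicate 2 (highest adjusted p = 0.179).

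With all 5 arrays, Psma2 and Psma4 were not called in any comparison. Psma2 had 23488 and 16863 with ethanol, 26804 and 27383 with poly IC alone and 19399.5 in naive cells, so that the naive array lay between both ethanol pools. Its differences were -0.44 with ethanol against poly IC (limma adjusted p = 0.106) and 0.48 with poly IC against naive (adjusted p = 0.0845). Psma2 was called lower with ethanol than with poly IC alone without ethanol replicate 1 (-0.68, adjusted p = 0.000305), and higher with poly IC than in naive cells with median-centred arrays, without ethanol replicate 1 and without ethanol replicate 2. Psma4 stood at -0.28 and 0.41 in the same comparisons. The remaining alpha genes lay nearer to 0 in both. The interval of Psma7 ran from -0.31 to 0.28 for ethanol against poly IC and from -0.54 to 0.18 for poly IC against naive, and that of Psma1 from -0.51 to 0.31 and from -0.61 to 0.39.

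**Figure D2:**
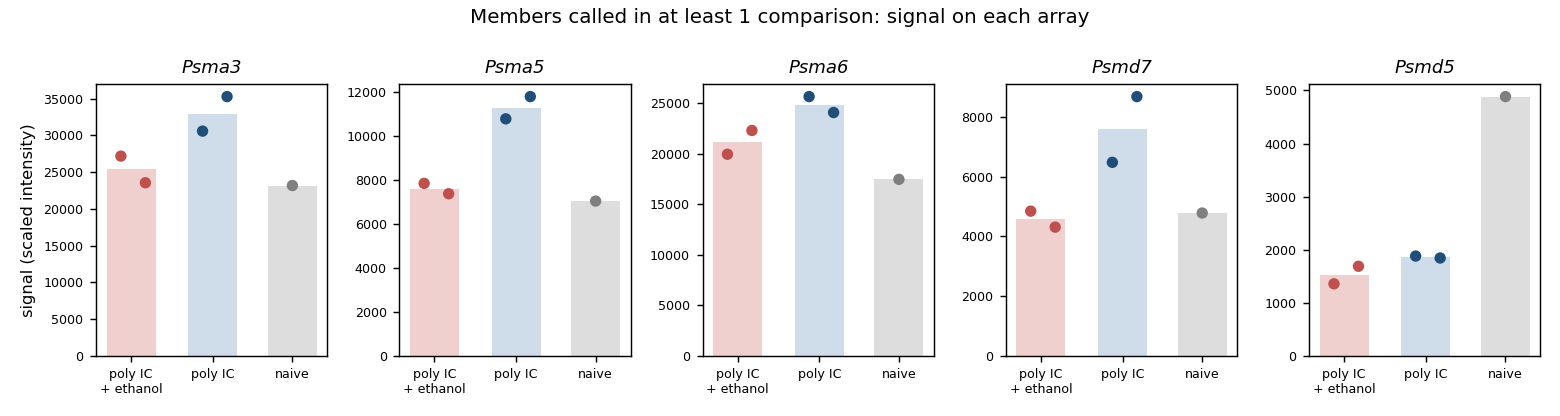
Signal (scaled intensity, linear axis from 0) of the 5 members called in at least 1 comparison, with 1 point per array and bars at group means, for poly IC plus ethanol, poly IC and naive. Both poly IC points are the highest for Psma3, Psma5, Psma6 and Psmd7, and the naive point of Psmd5, at 4885, lies above its 4 treated points.

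The catalytic beta genes were not called in any comparison. Over all genes 10.6% were called with ethanol against poly IC, 31.8% with poly IC against naive and 16.6% with ethanol against naive. Psmb5, the chymotrypsin-like subunit, had 7065 and 6019 with ethanol, 8771 and 7389 with poly IC alone and 7285 in naive cells. Its difference was -0.29 with ethanol against poly IC (95% interval -0.65 to 0.06) and 0.14 with poly IC against naive (-0.30 to 0.58). Psmb6, the caspase-like subunit, had 5417 and 3776 with ethanol, 5324 and 4672 with poly IC alone and 6104 in naive cells. The ethanol pools of Psmb6 lay on both sides of its poly IC pools, and the intervals ran from -0.56 to 0.30 and from -0.81 to 0.25 in these comparisons. Psmb7, the trypsin-like subunit, had 5679.8 and 5086 with ethanol, 6638 and 7321 with poly IC alone and 5479 in naive cells. Its ethanol pools lay below its poly IC pools, with differences of -0.36 (-0.70 to -0.02, limma adjusted p = 0.172) and 0.33 (-0.09 to 0.75, adjusted p = 0.207). None of these 6 intervals reached a 2-fold change. A second, dimmer probe set for Psmb5 stood at 0.13 with ethanol against poly IC and 0.60 with poly IC against naive and was not called either.

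Their immunoproteasome counterparts were called in both comparisons, all 3 lower with ethanol than with poly IC alone and higher with poly IC than in naive cells. Over all genes 4.8% were called lower in the first of these and 11.7% higher in the second. Psmb8 had 24111 and 25514 with ethanol, 35027 and 37937 with poly IC alone and 24439 in naive cells (ethanol -0.55, limma adjusted p = 0.0133, and poly IC 0.57, adjusted p = 0.00947). Psmb9 had 13937 and 11735 with ethanol, 19622 and 21989 with poly IC alone and 11173 in naive cells (ethanol -0.69, adjusted p = 0.0139, and poly IC 0.88, adjusted p = 0.00339). Psmb10 had 21205 and 20222 with ethanol, 31692 and 36596 with poly IC alone and 14201 in naive cells (ethanol -0.71, adjusted p = 0.00676, and poly IC 1.25, adjusted p = 0.000182). For each of the 3, both poly IC arrays were the highest. The ethanol calls of all 3 were lost without poly IC replicate 2 and with eBayes without the trend, those of Psmb8 and Psmb9 also without poly IC replicate 1, and that of Psmb8 with quantile normalization. The rises of Psmb9 and Psmb10 held in all 13 alternatives, and that of Psmb8 was lost with quantile normalization, with eBayes without the trend and without poly IC replicate 2. Psme1, a subunit of the interferon-inducible PA28 activator, had 17134 and 17081 with ethanol, 21192 and 23605 with poly IC alone and 16891 in naive cells, and was not called (ethanol -0.38, adjusted p = 0.0763, and poly IC 0.40, adjusted p = 0.0654).

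The log2 ratio of each immunoproteasome gene to its counterpart was taken within each array and set to 0 on the naive array. For Psmb9 over Psmb6 it was 0.48 and 0.73 with ethanol and 0.99 and 1.33 with poly IC alone. For Psmb10 over Psmb7 it was 0.52 and 0.61 with ethanol and 0.88 and 0.95 with poly IC alone. In both pairs the groups did not overlap. For Psmb8 over Psmb5 the ratio was 0.02 and 0.33 with ethanol and 0.26 and 0.61 with poly IC alone, and the groups overlapped. On the brightest probe sets the ratio was above that of the naive array for every pair on all 4 treated arrays. For Psmb8 over Psmb5 this depends on the Psmb5 probe set. The dimmer one had 1210 and 1716 with ethanol, 1361 and 1233 with poly IC alone and 771 in naive cells. It thus lay above naive on all 4 treated arrays, and no ratio was taken with it. With 2 arrays against 2 an exact permutation test cannot give a two-sided p below 1 in 3, so none is given.

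**Figure D3:**
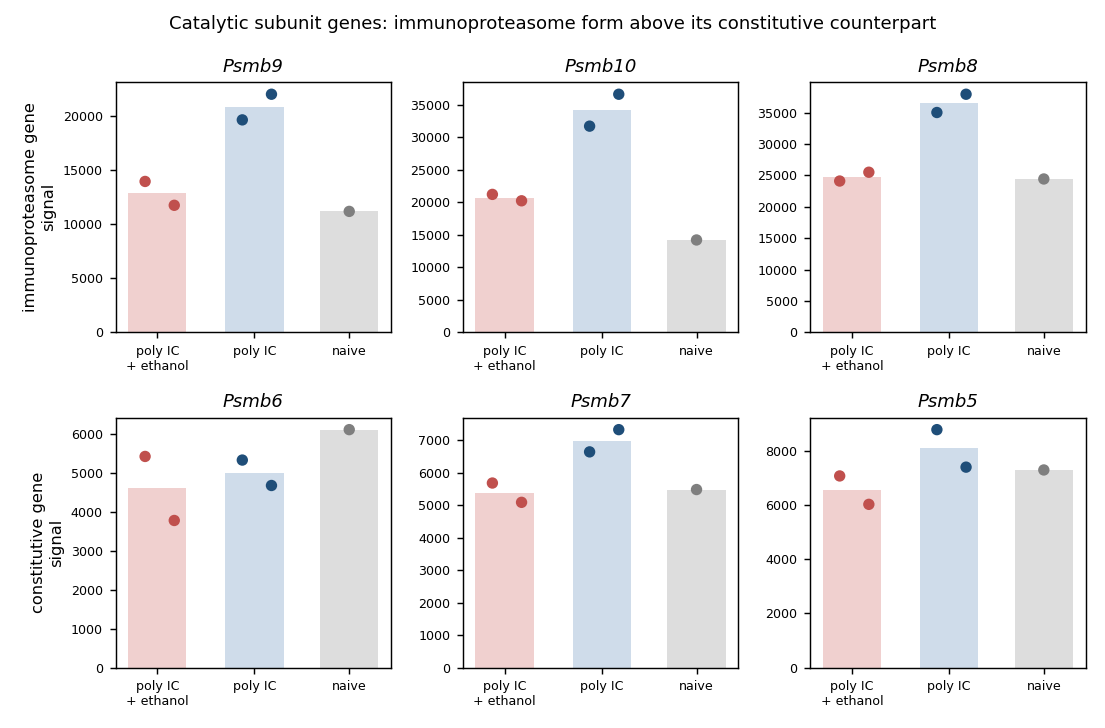
Signal (scaled intensity, linear axis from 0) of the immunoproteasome catalytic genes (upper row) and their constitutive counterparts (lower row), with 1 point per array and bars at group means, for poly IC plus ethanol, poly IC and naive. Both poly IC points lie above all other points for Psmb8, Psmb9 and Psmb10, and also for Psmb5 and Psmb7 but not for Psmb6.

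The structural beta genes Psmb1, Psmb2, Psmb3 and Psmb4, whose products complete the inner rings without a proteolytic site, were not called in any comparison. Their differences lay between -0.20 and -0.06 with ethanol against poly IC and between -0.28 and 0.13 with poly IC against naive. Psmb4 had 17889.5 and 21099 with ethanol, 22832 and 21834 with poly IC alone and 20432 in naive cells. Psmb1 had 8065 and 7996 with ethanol, 9039 and 7753 with poly IC alone and 10198 in naive cells on its brightest probe set. A second Psmb1 probe set had 5347 and 5570.1 with ethanol, 3959 and 3807 with poly IC alone and 7361 in naive cells, and was lower with poly IC than in naive cells when each probe set was tested for itself (-0.88, limma adjusted p = 0.00979). Whether Psmb1 was called therefore depended on the probe set.

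Of the base ATPases, which unfold the substrate, 5 were tested and none was called in the main fit. Over all genes 10.6% were called with ethanol against poly IC and 31.8% with poly IC against naive. With median-centred arrays, Psmc5 and Psmc6 were called higher with poly IC than in naive cells. Psmc5 was so too with quantile normalization and without either ethanol array. The difference of Psmc2 between ethanol and poly IC ran from -0.52 to -0.31 under the alternatives. Psmc2 was called lower there only without ethanol replicate 1. Psmc5 had 3821 and 3345 with ethanol, 5127 and 4565 with poly IC alone and 3335 in naive cells. Both poly IC arrays were the highest (ethanol -0.41, limma adjusted p = 0.15, and poly IC 0.51, adjusted p = 0.086). Psmc2 had 8331 and 7172 with ethanol, 10695 and 10069.5 with poly IC alone and 9517 in naive cells. Here both ethanol arrays were the lowest (ethanol -0.41, adjusted p = 0.104, and poly IC 0.12, adjusted p = 0.64). Psmc6 had 19567 and 17284 with ethanol, 22090.3 and 21123 with poly IC alone and 17357 in naive cells, with differences of -0.23 and 0.31. Psmc1 and Psmc3 stood at -0.10 and -0.18 with ethanol against poly IC. Psmc4, too dim to be tested, had 332 and 38 with ethanol, 439 and 111 with poly IC alone and 491 in naive cells.

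Among the 10 tested non-ATPase subunits, 1 fell with ethanol against poly IC (all genes 4.8%). None was called with poly IC against naive (all genes 31.8%). Psmd7, the partner of the deubiquitinase Psmd14 in the lid, had 4843 and 4307 with ethanol, 6477 and 8678 with poly IC alone and 4779 in naive cells. Both poly IC arrays stood above the other 3. The ethanol difference was -0.69 (SE 0.18, limma adjusted p = 0.0382) and that of poly IC against naive 0.62 (SE 0.22, adjusted p = 0.0538). The ethanol call was lost with no filter, with eBayes without the trend, without poly IC replicate 1 and without poly IC replicate 2 (highest adjusted p = 0.347). The difference from naive passed in 7 of 13 alternatives, median-centred arrays and quantile normalization among them.

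Psmd12, a scaffold subunit of the lid measured by an _f_at probe set, had the largest difference between ethanol and poly IC of the 37 tested members, and its ethanol pools lay far apart. It had 1942 and 1056 with ethanol, 2644 and 2774 with poly IC alone and 1891 in naive cells (-0.81, SE 0.25, limma adjusted p = 0.0694). Among other settings it was called with the 60th percentile filter and, at -1.18, without ethanol replicate 1, and stood at -0.43 without ethanol replicate 2. Psmd11, a lid subunit that also touches the core, had 7404 and 5156 with ethanol, 7796 and 9714 with poly IC alone and 8545 in naive cells (-0.48, adjusted p = 0.154). Under the alternatives this difference ran from -0.73 to -0.23, and it was called only without ethanol replicate 1. A second Psmd11 probe set had 3123 and 2676 with ethanol, 6013 and 4966 with poly IC alone and 3552 in naive cells, and was lower with ethanol than with poly IC when each probe set was tested for itself (-0.86, adjusted p = 0.0449).

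The other non-ATPase subunits were not called. Psmd6, a lid subunit, had 9850 and 11399 with ethanol, 13209 and 11052 with poly IC alone and 8663 in naive cells, so that all 4 treated pools lay above the naive array (poly IC 0.47, limma adjusted p = 0.0797). Psmd8, also of the lid, had 4415 and 3374 with ethanol, 3629 and 3387 with poly IC alone and 5009 in naive cells (poly IC -0.49, adjusted p = 0.121). Differences between ethanol and poly IC were 0.03 for Psmd14, the deubiquitinase (interval -0.30 to 0.36), 0.01 for Psmd4, a ubiquitin receptor (-0.31 to 0.33), and 0.26 for Psmd3 (-0.08 to 0.60). They were 0.18 for Psmd13 and -0.40 for Psmd1, a large scaffold of the base. In all, 5 of the 10 lay below 0. Psmd2, the other large scaffold, was too dim to be tested and had 294 and 142 with ethanol, 688 and 500 with poly IC alone and 323 in naive cells.

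**Figure D4:**
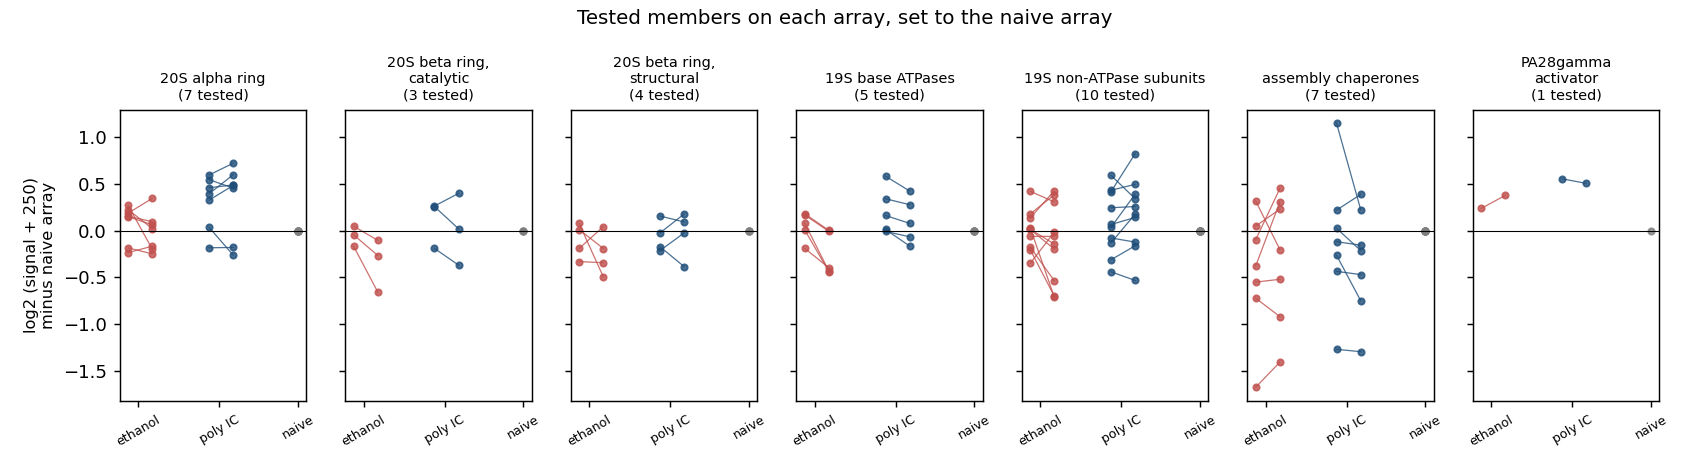
Log2(signal + 250) of each tested member minus its value on the naive array, in panels by role, with lines joining both pools of a group (poly IC plus ethanol, poly IC, and naive at 0). In the alpha ring panel 5 genes lie above 0 on both poly IC arrays, and among the assembly chaperones Psmd5 lies below -1 on all 4 treated arrays.

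The assembly chaperones held the tested member with the largest difference from naive. Psmd5, which holds base ATPases while the regulatory particle is built and is absent from the finished proteasome, had 1356 and 1687 with ethanol, 1879.5 and 1843 with poly IC alone and 4885 in naive cells. All 4 treated pools lay far below the naive array, and both ethanol pools lay below both poly IC pools. Psmd5 fell with poly IC against naive (-1.28, SE 0.23, limma adjusted p = 0.0022) and with poly IC plus ethanol against naive (-1.54, SE 0.23, adjusted p = 0.00132). Both calls held in all 13 alternatives, with adjusted p up to 0.0155 and 0.011. The difference between ethanol and poly IC was -0.26 (interval -0.68 to 0.16, adjusted p = 0.432). The naive level rests on 1 array. For all 7 tested B cell markers, both ethanol arrays lay below the naive array (all genes 48.1%). Both poly IC arrays did too (all genes 52.1%). A link between these markers and Psmd5 was not tested. Of the 7, 5 were called lower with poly IC plus ethanol (median -1.01; all genes 8.26%) and 7 with poly IC (median -1.68; all genes 20.1%).

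The other 6 tested chaperones were not called. Psmg2, which starts the assembly of alpha rings with Psmg1, had 1307 and 1107 with ethanol, 1892 and 1276 with poly IC alone and 2317 in naive cells (ethanol against naive -0.82, limma adjusted p = 0.0779). Psmg1 stood at -0.53 with ethanol and -0.45 with poly IC, each against naive. Psmd10, a base chaperone also named gankyrin, had 1779 and 1163 with ethanol, 3366 and 1649 with poly IC alone and 1375 in naive cells. Its poly IC pools lay far apart, and the naive array lay between both ethanol pools (ethanol -0.63, adjusted p = 0.23, and poly IC 0.69, adjusted p = 0.193). With 1 array left out the ethanol difference of Psmd10 ran from -1.09 to -0.17, and it was called without ethanol replicate 1 (-0.89, adjusted p = 0.0118). Its difference between poly IC and naive ran from 0.22 to 1.15, and was called without poly IC replicate 2, without ethanol replicate 1 and without ethanol replicate 2. Psmd9, Psmg3 and Psmg4 stood at 0.23, -0.13 and 0.10 with ethanol against poly IC. Psme3, the nuclear PA28 gamma activator, had 2834 and 3149 with ethanol, 3593 and 3465 with poly IC alone and 2362 in naive cells, with all 4 treated pools above the naive array (ethanol -0.22, adjusted p = 0.449, and poly IC 0.53, adjusted p = 0.0737).

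Of 17 listed factors on the array that act with the proteasome or control its genes, 16 were tested. None was called with ethanol against poly IC (all genes 10.6%). With poly IC against naive 2 rose (12.5%), near the share of all genes called higher (11.7%). Nfe2l2, a transcription factor of the oxidative stress response, had 14748 and 13187 with ethanol, 17372 and 17639.7 with poly IC alone and 4311 in naive cells (1.96 with poly IC, SE 0.16, limma adjusted p = 1.48e-05). Mafk, a small Maf protein that pairs with it on DNA, had 5624 and 6280.3 with ethanol, 8079 and 8079 with poly IC alone and 1711 in naive cells (2.09, adjusted p = 2.69e-05). Both stood far above the naive array in all 4 treated pools. Nfe2l1, the factor known to raise proteasome genes when the proteasome is blocked, had 4718 and 6294 with ethanol, 5436 and 4860.2 with poly IC alone and 4791 in naive cells (0.10, adjusted p = 0.771). Uba7, the activating enzyme of the ubiquitin-like modifier Isg15, had 8050.2 and 7775 with ethanol, 12621 and 13480.3 with poly IC alone and 8225 in naive cells. It fell with ethanol against poly IC (-0.70, adjusted p = 0.0115) and rose with poly IC against naive (0.65, adjusted p = 0.014). Both calls were lost without poly IC replicate 1, without poly IC replicate 2 and with eBayes without the trend (highest adjusted p = 0.141 and 0.0987).

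Promoters were read from RefSeq (build GRCm38.p6), whose table gave a start for 33 of the 40 members. The others were Psmb1, Psmb2, Psmb7, Psmc3, Psmd3, Psmd7 and Psmg2. Each run holds the 250 bases before a start, 5′ to 3′ on the strand of the gene. Capitals mark matches on either strand to the antioxidant response element core TGACNNNGC, to the CCAAT box or to the ETS core CCGGAAG. The starts of Psma3, Psma5 and Psma6 (which has 2) are shown because these genes rose with poly IC, that of Psmd5 because it fell, and those of Psmb5 and Psmb6 because they hold the antioxidant core, which the Nfe2l factors bind.
Psma3 (chr12:70974373-70974622, plus strand): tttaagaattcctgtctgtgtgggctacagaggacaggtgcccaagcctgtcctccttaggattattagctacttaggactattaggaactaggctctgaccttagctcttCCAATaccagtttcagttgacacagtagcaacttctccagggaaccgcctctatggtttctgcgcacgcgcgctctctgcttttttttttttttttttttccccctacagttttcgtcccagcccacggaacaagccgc
Psma5 (chr3:108256676-108256925, plus strand): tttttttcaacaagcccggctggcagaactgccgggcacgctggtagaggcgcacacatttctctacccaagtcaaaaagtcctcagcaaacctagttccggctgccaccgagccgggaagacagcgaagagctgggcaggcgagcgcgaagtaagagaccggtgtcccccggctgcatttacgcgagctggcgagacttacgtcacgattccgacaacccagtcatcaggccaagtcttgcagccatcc
Psma6, first start (chr12:55383972-55384221, plus strand): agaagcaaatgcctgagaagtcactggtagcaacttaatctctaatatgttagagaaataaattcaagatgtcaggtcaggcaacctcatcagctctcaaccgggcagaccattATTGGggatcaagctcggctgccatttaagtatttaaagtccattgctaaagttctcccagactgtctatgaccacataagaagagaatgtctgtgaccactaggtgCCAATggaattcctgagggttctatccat
Psma6, second start (chr12:55398575-55398824, plus strand): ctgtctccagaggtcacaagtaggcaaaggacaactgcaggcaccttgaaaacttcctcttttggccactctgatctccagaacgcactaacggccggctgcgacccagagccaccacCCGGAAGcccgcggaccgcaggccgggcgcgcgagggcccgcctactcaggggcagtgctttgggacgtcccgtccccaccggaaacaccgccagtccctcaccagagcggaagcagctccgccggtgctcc
Psmd5 (chr2:34870963-34871212, minus strand): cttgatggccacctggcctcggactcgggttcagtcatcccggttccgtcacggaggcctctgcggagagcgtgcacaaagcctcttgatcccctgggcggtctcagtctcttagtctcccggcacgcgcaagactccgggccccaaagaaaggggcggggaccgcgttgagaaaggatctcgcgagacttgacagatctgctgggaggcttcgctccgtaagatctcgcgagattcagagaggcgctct
Psmb5 (chr14:54617996-54618245, minus strand): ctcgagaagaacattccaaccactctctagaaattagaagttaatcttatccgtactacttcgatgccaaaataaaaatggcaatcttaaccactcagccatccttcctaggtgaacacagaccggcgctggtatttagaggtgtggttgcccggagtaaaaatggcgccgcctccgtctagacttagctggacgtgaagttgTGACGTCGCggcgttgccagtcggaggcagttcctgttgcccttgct
Psmb6 (chr11:70525107-70525356, plus strand): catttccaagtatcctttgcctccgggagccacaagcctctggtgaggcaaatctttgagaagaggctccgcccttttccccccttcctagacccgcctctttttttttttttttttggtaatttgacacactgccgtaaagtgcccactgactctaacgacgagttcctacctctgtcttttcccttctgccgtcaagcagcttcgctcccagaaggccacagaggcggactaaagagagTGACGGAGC

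The alpha genes that rose had no motif in common in these windows. Psma3 held 1 CCAAT box, the first start of Psma6 held 2 and its second start 1 ETS core, and Psma5 held no match. Psmd5 held none either. The ETS core was found for 12 of 33 members (36.4%), Psmc3ip among them, beside 7.8% of the 27025 genes in the table. Over tested genes with a promoter there it was found for 10 of 30 members, beside 16.6% of all. The antioxidant core was found for 5 members (15.2%) and 11.5% of all genes, and over tested genes for 5 of 30 members and 14.1% of all. The 5 were Psmb5, Psmb6, Psmc6, Psmd12 and Psmd9, none of which was called. The CCAAT box was found for 13 members (39.4%), Psmc3ip among them, and 37.5% of all genes. Over tested genes it was found for 12 of 30 members and 40.8% of all. A core of the interferon-stimulated element, GAAA then any 2 bases then GAAA, was found for 3 members (9.1%), namely Psmb3, Psmd4 and Psmd9, and 3.5% of all genes, and over tested genes for 3 of 30 members and 3.3% of all. None of the runs above holds it. Sites of different motifs did not overlap in the members' windows. A match is a string of letters, and binding was not tested.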

How the data were processed

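RNA from mouse peritoneal macrophages was measured on 5 MG-U74Av2 arrays. The deposited values are intensities on a linear scale, 1 per probe set, made by the authors with Microarray Suite 5.0 and scaled on each array to a target of 2500, with Data Mining Tool 3.0 also named, per the labels. Such scaling hides a change in total RNA. Of 12488 probe sets 66 were controls and 10833 had 1 platform symbol, 396 several and 1193 none. Symbols were updated by Entrez ID from RefSeq's GRCm38.p6 gene table (10817 found). Probe sets with a mean under the 40th percentile (513) were left out, and the brightest probe set of each gene was kept. Values were fitted as log2(signal + 250) with limma 3.58.1 in R 4.3.3, with 1 mean for each group over all arrays and eBayes with an intensity trend (2 residual and 7.63 prior degrees of freedom), as two-sided tests with Benjamini-Hochberg adjustment across the 5581 genes. The scripts were tested on simulated data. The number of arrays limits the precision.

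The naming rule for the members uses no measured value, but the choice of these genes, the lists, the motifs and the tests were made with earlier results of these data known. Values on every array are given for called members, for the catalytic genes and their counterparts, for Psme1, Psme3, Nfe2l1 and Nfe2l2, for members among the 3 with the largest statistic of their role in either of the first 2 comparisons, and for members near or under the filter. The immunoproteasome genes, the listed factors that act with the proteasome and Uba7 are named where called. Cell type markers are given mainly as sums, and most that were called are not named. The brightest probe set was compared with the others of its gene. The pool numbers in the titles did not pair the samples (correlation of deviations 0.05 across genes). The alternatives were a smaller and a larger offset, median-centred or quantile-normalized arrays, no filter or the 60th percentile, eBayes without the trend, the mean of all probe sets of a gene, each treated array left out, the treated arrays alone and the pool number as a term.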

Additional observations from a re-analysis of the deposited data

How the results depend on the processing

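No called value of a named gene changed sign under an alternative. Members called lower with ethanol against poly IC were 2, and came to 1 with no filter, 0 with eBayes without the trend, 5 with the replicate block (the pool number as a term) and 0 to 8 with 1 array left out. All genes called there were 590, and came to 324 with no filter, 86 with eBayes without the trend and 139 to 1076 with 1 array left out. Members called higher with poly IC against naive were 3, and came to 10 with median-centred arrays, 0 with eBayes without the trend, 6 with the replicate block and 1 to 10 with 1 array left out. Their median of 0.12 was 0.31 with median-centred arrays. Members called lower were 1, and came to 2 with the mean of all probe sets of a gene and 1 to 2 with 1 array left out. All genes called there were 1775, and 1158 to 2367 with 1 array left out. With ethanol against naive, members called lower were 1, and came to 2 with the replicate block and 1 to 6 with 1 array left out. All genes called there were 929, and came to 579 with eBayes without the trend and 720 to 1520 with 1 array left out. The replicate block also called Psma2, Psmd12 and Psmd10 (adjusted p = 0.05 after rounding) lower with ethanol against poly IC by limma, Psma2, Psmd7 and Psmd10 higher with poly IC against naive, and Psmg2 lower with ethanol against naive. The cause of these changes was not tested. Of the values of named genes under the alternatives, 1182 kept their side of the threshold, 40 lost a call and 55 gained one. With 1 naive array and 2 pools in each treated group, few arrays set the spread.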
